A study of Nicotiana benthamiana with 12 samples.

Results

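Pectin genes of Nicotiana benthamiana leaves were followed after a short heat treatment. They were taken as all genes whose deposited homology text names pectin, pectate, polygalacturonase or galacturonosyltransferase and does not name expansin, xyloglucan or lectin. This rule uses no measured value and found 197 of the 40763 genes in the table. Of these, 149 had enough counts to be tested and 48 did not, the highest mean level among the untested being 0.61 CPM (counts scaled to a common library size, with sizes set by the trimmed mean of M values, TMM). By their text, 25 of the genes encode galacturonosyltransferases and 1 a pectin methyltransferase, which build pectin. Another 16 encode pectin acetylesterases and 49 pectinesterases, which trim it. Pectate lyases (27), polygalacturonases (40) and pectin lyase-like proteins (11) make up the classes for cutting the chain. Of these polygalacturonases, 5 have the text of a non-catalytic subunit, and 3 of the pectinesterases carry an inhibitor domain without the enzyme fold. The other 28 encode inhibitors, 26 of the pectinesterase or invertase type and 2 of polygalacturonases. The set is thus wider than modifying enzymes alone.

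Pectin is the gel-like polysaccharide of the primary wall and of the middle lamella that holds plant cells together. Its main chain, homogalacturonan, is built in the Golgi by galacturonosyltransferases and leaves the cell carrying methyl and acetyl groups. In the wall, pectinesterases remove the methyl groups and pectin acetylesterases the acetyl groups, and the bared chain can bind calcium and stiffen, or can be cut by polygalacturonases and pectate lyases. Small proteins with a pectinesterase inhibitor domain bind and block pectinesterases, although relatives of the same fold block invertases, enzymes that split sucrose.

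The plants were 5 weeks old, grown in soil under long days. The heat group was held at 37 °C for 1 h, and the mock group remained at 23 °C. Total RNA and polysome RNA, the RNA recovered with ribosome complexes, were each sequenced from 3 libraries per treatment. The submitters call these biological replicates. The test pools each gene's spread over all 12 libraries, so p-values measure a pooled spread, which may be below that of the mock groups. Library pairs were compared by chi-square per degree of freedom, where larger values mean less alike counts. Heat total pairs gave 2.05, 2.14 and 1.76, but mock total pairs 10.1, 21.2 and 11.9. Among polysome libraries, heat pairs gave 11.8, 13.3 and 2.63 (the last for libraries 6 and 7), but mock pairs 35.6, 19.7 and 19.0. Whether the heat libraries came from separate plants was not tested. The titles number the heat total and mock polysome libraries from 2 to 4, and the mock total and heat polysome libraries from 5 to 7. Values are given in the order of these numbers.

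Total counts per library were 10724854 to 14485118. Leaf mesophyll genes (89 genes of chlorophyll-binding proteins and the Rubisco small subunit) were abundant in every library but differed with treatment. They summed to 117400 to 125800 CPM in heat total RNA, against 139000 to 149300 CPM in mock total RNA, and to 300800 to 419000 CPM in heat polysome RNA, against 208600 to 290100 CPM in mock polysome RNA. Heat and mock sums did not overlap in either fraction on this scale. The TMM factors were 1.22 to 1.26 in heat total, 1.40 to 1.46 in mock total, 0.56 to 0.68 in heat polysome and 0.79 to 0.96 in mock polysome libraries. Every CPM value here depends on this unequal scaling. Of 85 tested mesophyll genes, 7 rose and 21 fell in total RNA and 45 rose and 5 fell in polysome RNA, and the part of this list in the pectin results was not tested. Mock total library 7 and mock polysome library 2 stood apart for pectin genes. Library 7 had the highest level of its group in 93 of the 149 tested genes (62.4%, against 39.1% of all 34325 genes tested), and mock polysome library 2 in 91 (61.1%, against 36.3%). A list of 51 pollen and anther genes moved with them: its sum was 418 to 426 CPM in heat total RNA, against 499.7, 493 and 768 CPM in mock total RNA. In polysome RNA that sum was 1407, 1204 and 1252 CPM after heat, against 1738, 804 and 1121 CPM in mock. Of its 44 tested genes, 9 rose and 16 fell in total RNA and 13 rose and 9 fell in polysome RNA. For both lists the shares of all genes tested were 25.7% higher and 28.3% lower in total RNA. In polysome RNA they were 28.1% and 28.0%. Between 1 and 3 genes of that list were at the lowest count in all libraries of a group, and its part in the results below was not tested. Class counts are therefore also given from a fit without both libraries. Single genes are uncertain as well, because reads of near-identical copies could be split and no source used here states whether counting used strand. CPM is not corrected for gene length, so CPM values are compared between libraries and not between genes.

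Heat was first set against mock to ask which pectin genes changed within the hour. More genes fell than rose, and the same held in both fractions. In total RNA 30 of 149 genes rose (20.1%) and 60 fell (40.3%), with a median log2 fold change of -0.34. Among all genes tested, 25.7% rose and 28.3% fell, with a median of -0.08. In polysome RNA 30 rose (20.1%) and 56 fell (37.6%), with a median of -0.37, where 28.1% of all genes rose and 28.0% fell (median -0.06). Calls throughout are from edgeR's quasi-likelihood test with a Benjamini-Hochberg adjusted p under 0.05 over all genes. Levels of all 3 heat libraries lay below all 3 mock libraries in 66 genes in total RNA and 55 in polysome RNA, against 34.3% and 28.6% of all genes, and above them in 36 and 32, against 32.2% and 29.2%. In both fractions 44 of the genes fell and 20 rose, 2 fell in total RNA but rose in polysome RNA, and 39 passed in neither. Such joint counts were not made for all genes, so these are not read as particular to pectin genes. Without mock total library 7 and mock polysome library 2, 33 rose and 50 fell in total RNA and 35 rose and 49 fell in polysome RNA, of 143 tested. In bulk leaf RNA, fewer cells of a type and less RNA per cell cannot be told apart.

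**Figure D1:**
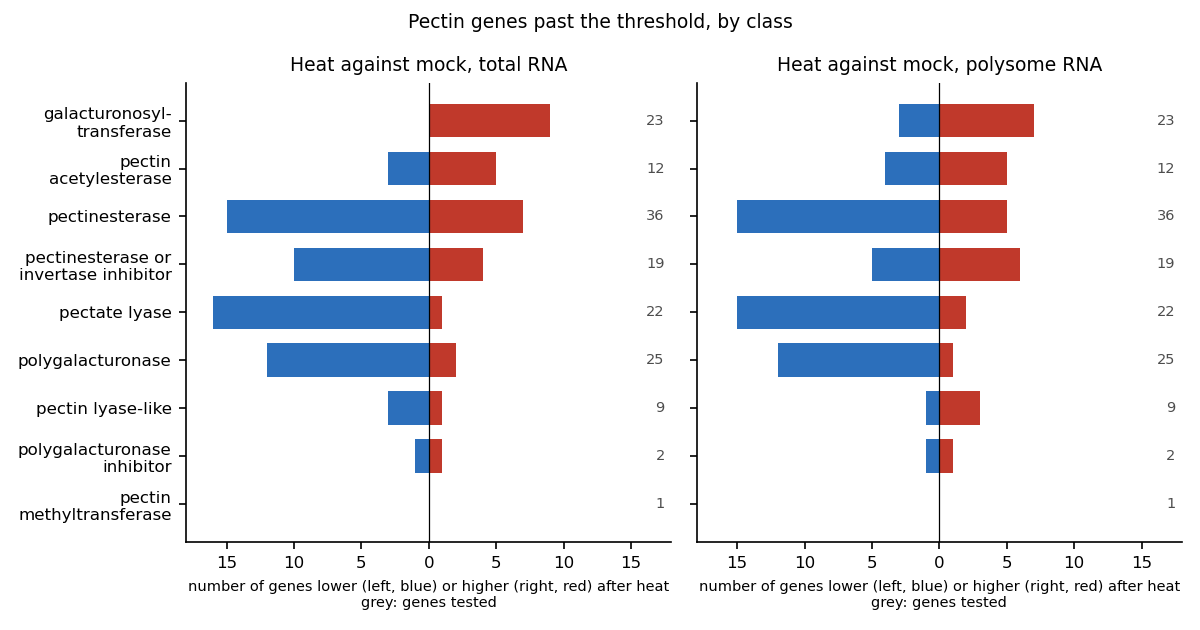
Number of pectin genes with an adjusted p under 0.05 in heat against mock, by class, in total RNA (left) and polysome RNA (right). Red bars count genes that were higher after heat, blue bars genes that were lower, and the grey number is how many of the class were tested. Pectate lyases, with 16 and 15 genes lower, and polygalacturonases, with 12 and 12, lie mostly to the left, while galacturonosyltransferases lie mostly to the right.

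Class counts are read beside the shares of all genes given above. Of 23 tested galacturonosyltransferase genes, 9 rose in total RNA (39.1%, against 25.7% of all genes) and 0 fell by edgeR (1 lower at an unadjusted p under 0.05, 0 by DESeq2 and 1 by limma-voom), with a median log2 fold change of 0.54. In polysome RNA 7 rose (30.4%, close to the 28.1% of all genes) and 3 fell (13.0%, against 28.0%), with a median of 0.32. Their summed level was 272, 275 and 278.5 CPM in heat total RNA, against 155.6, 156.5 and 163.5 CPM in mock total RNA. The sum was 223, 237 and 247 CPM in heat polysome RNA, against 151, 124 and 144.5 CPM in mock polysome RNA. In neither fraction did the sums of heat and mock libraries overlap. Without the mock pair of libraries that stood apart, 10 rose in total RNA, and 8 rose and 3 fell in polysome RNA.

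The galacturonosyltransferase with the most counts was Niben101Scf06956g01012.1, with the text of galacturonosyltransferase 8, an enzyme needed for normal pectin content and cell adhesion in Arabidopsis. It had 41, 41.25 and 40.4 CPM in heat total RNA, against 13.6, 12.7 and 17.4 CPM in mock total RNA (log2 fold change 1.49 ± 0.19, SE; adjusted p = 8.1e-06). In the other fraction it had 61.85, 79 and 84.3 CPM in heat polysome RNA, against 32.2, 18.8 and 25 CPM in mock polysome RNA (log2 fold change 1.57 ± 0.19, SE; adjusted p = 4.2e-06). Heat and mock libraries did not overlap in either fraction. The steepest rise of the class was in Niben101Scf07437g02008.1, annotated as galacturonosyltransferase 6, which had 3.15, 3.42 and 3.71 CPM in heat total RNA, against 0.127, 0.117 and 0.384 CPM in mock total RNA. Polysome RNA held 8.73, 7.81 and 7.10 CPM after heat, against 0.571, 0.458 and 0.112 CPM in mock leaves. Heat libraries were at several CPM and every mock library under 1 CPM, with log2 fold changes of 3.99 ± 0.40 in total RNA and 4.28 ± 0.38 in polysome RNA (SE; adjusted p = 5.7e-07 and 1.3e-07). Its value in total RNA was 4.71 without mock total library 7.

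Most of the class, 15 tested genes, carries the text of an Arabidopsis homogalacturonan alpha-1,4-galacturonosyltransferase, an enzyme that extends the backbone. This text marks a shared homolog and not a separate type of enzyme. Of these 15, 7 rose in total RNA and the other 8 did not pass the test. The same 15 gave 4 rises and 2 falls in polysome RNA. In Niben101Scf02358g00003.1 the fractions parted: it had 39.75, 41.9 and 41.65 CPM in heat total RNA, against 12.75, 16.8 and 17.2 CPM in mock total RNA. Its polysome level was 7.99, 8.97 and 7.47 CPM after heat, against 8.09, 5.575 and 7.16 CPM in mock leaves. So every heat total library was above every mock total library (log2 fold change 1.40 ± 0.16, SE; adjusted p = 2e-06), while in polysome RNA 1 heat library lay below the highest mock library and the test was not passed (log2 0.24 ± 0.18, SE; adjusted p = 0.28). The 3 members that fell in polysome RNA included Niben101Scf07678g02003.1, with the text of galacturonosyltransferase 15, at 4.18, 3.695 and 2.24 CPM after heat, against 6.755, 8.17 and 9.18 CPM in mock leaves (log2 fold change -1.24 ± 0.23, SE; adjusted p = 0.00028). Its levels in total RNA were 4.86, 4.435 and 4.87 CPM after heat, against 6.28, 5.05 and 5.70 CPM in mock leaves, and did not pass the test (adjusted p = 0.3). The single pectin methyltransferase gene, Niben101Scf04372g00013.1, whose product adds methyl groups to the chain in the Golgi, passed the test in neither fraction, with log2 fold changes of 0.09 ± 0.15 in total RNA and -0.34 ± 0.15 in polysome RNA (SE; adjusted p = 0.63 and 0.063).

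**Figure D2:**
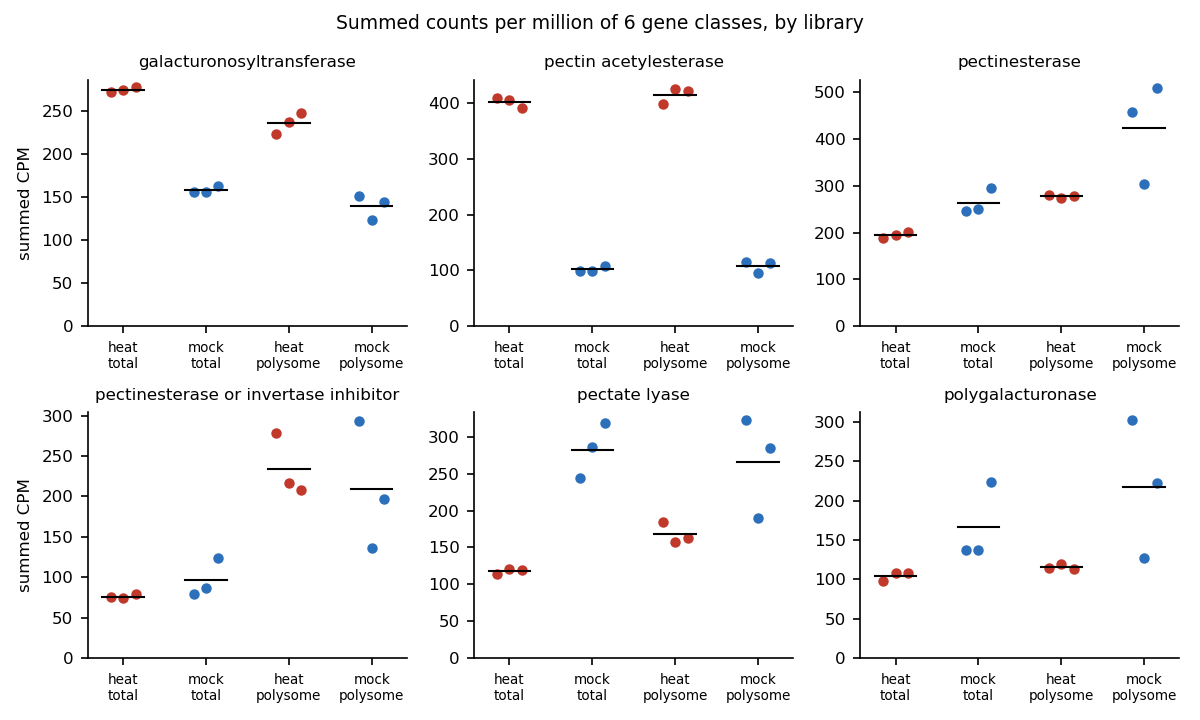
Summed CPM (linear axes from 0) of the genes of 6 classes in each library, with heat libraries in red, mock libraries in blue and a black bar at each group mean. Galacturonosyltransferase and pectin acetylesterase sums of heat libraries lie above those of mock libraries in both fractions, and pectate lyase sums lie below them in both. Polygalacturonase and inhibitor sums in mock polysome RNA spread widely, from 127 to 302 CPM and from 136 to 293 CPM.

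Pectin acetylesterases, which strip acetyl groups from the chain, rose in sum, and most of that sum after heat came from 1 gene. Niben101Scf08565g00001.1 had 265, 264 and 249 CPM in heat total RNA, against 15.2, 13 and 8.58 CPM in mock total RNA (log2 fold change 4.40 ± 0.25, SE; adjusted p = 8.4e-10). Polysome RNA held 293, 312.5 and 300.3 CPM after heat, against 10.3, 21.8 and 17.35 CPM in mock leaves (log2 fold change 4.19 ± 0.25, SE; adjusted p = 1.3e-09). That is 21.2-fold higher in total RNA and 18.2-fold higher in polysome RNA, with all heat libraries far above all mock libraries. This gene alone held 64.6% of the summed CPM of its class in heat total RNA and 72.7% in heat polysome RNA. The class sum was 409.5, 405 and 391 CPM in heat total RNA, against 99.4, 99.0 and 107 CPM in mock total RNA. In polysome RNA it was 398, 425 and 422 CPM after heat, against 115.5, 95.9 and 113 CPM in mock.

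Of the 12 tested acetylesterase genes, 5 rose and 3 fell in total RNA (median log2 0.41), and 5 rose and 4 fell in polysome RNA (median 0.11). Without the pair of mock libraries, 5 rose and 2 fell in total RNA and 5 rose and 4 fell in polysome RNA, and without heat total library 4 alone only 1 fell in total RNA. The deposited annotation gives 3 of the tested genes the Arabidopsis homolog AT4G19420.1, Niben101Scf08565g00001.1 among them. Of these 3, 2 rose in total RNA and all 3 in polysome RNA, in a grouping chosen after the values were seen. In the other direction, Niben101Scf02714g07007.1 had 21.85, 19.3 and 19.4 CPM in heat total RNA, against 31.9, 33 and 37.3 CPM in mock total RNA (log2 fold change -0.76 ± 0.17, SE; adjusted p = 0.0016). In polysome RNA it fell as well (log2 -0.65 ± 0.18, SE; adjusted p = 0.0058). The clearest fall in polysome RNA was in Niben101Scf02119g00018.1, with 2.34, 1.58 and 2.12 CPM after heat, against 7.42, 5.65 and 7.16 CPM in mock leaves (log2 fold change -1.74 ± 0.25, SE; adjusted p = 2.4e-05). Its log2 fold change of -0.73 in total RNA (adjusted p = 0.015) was -0.57 without heat total library 4, and the call was then lost (adjusted p = 0.091).

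Pectinesterases formed the largest class and moved both ways, with more falls than rises. Of 36 tested, 7 rose and 15 fell in total RNA (median log2 -0.83), and 5 rose and 15 fell in polysome RNA (median -0.55). Without the pair of mock libraries, 7 rose and 12 fell in total RNA and 7 rose and 10 fell in polysome RNA, of 31 tested. Niben101Scf03706g02006.1, with the text of pectinesterase 3, was the class member with the highest mean CPM. It had 29.3, 30.2 and 30.75 CPM in heat total RNA, against 64.8, 57.9 and 63.9 CPM in mock total RNA (log2 fold change -1.05 ± 0.19, SE; adjusted p = 0.0003). On polysomes it stood at 67.1, 76.65 and 73.7 CPM after heat, against 184, 132 and 266 CPM in mock leaves (log2 fold change -1.42 ± 0.20, SE; adjusted p = 1.5e-05). All heat libraries were below all mock libraries in both fractions. All 5 tested genes with the text of pectinesterase 3 fell in total RNA, and 4 of them in polysome RNA, a tally made after the values were seen.

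The largest changes of pectinesterase genes were in weakly counted members. Of these, Niben101Scf00240g03015.1, with the text of pectinesterase 1, had 0.343, 0.2535 and 0.183 CPM in heat total RNA, against 5.46, 7.40 and 10.25 CPM in mock total RNA (log2 fold change -4.83 ± 0.44, SE; adjusted p = 1.9e-07). Its polysome levels were 0.738, 0.422 and 0.249 CPM after heat, against 12.65, 4.96 and 8.84 CPM in mock leaves (log2 fold change -4.20 ± 0.46, SE; adjusted p = 1.4e-06). Niben101Scf24249g00015.1, which carries the same text, went the other way, with 3.20, 5.07 and 4.26 CPM in heat total RNA, against 0.571, 0.176 and 0.320 CPM in mock total RNA (log2 fold change 3.53 ± 0.38, SE; adjusted p = 1.1e-06). The annotation gives this second gene a pectinesterase inhibitor domain and no pectin lyase fold, the fold of the enzyme. It held 8.61, 10.45 and 6.35 CPM in heat polysome RNA, against 0.381, 0.687 and 0.784 CPM in mock polysome RNA (log2 fold change 3.77 ± 0.37, SE; adjusted p = 3.5e-07). Among the steep falls in polysome RNA was also Niben101Scf03823g01006.1, at 0.984, 1.16 and 0.747 CPM after heat, against 12.4, 6.72 and 7.39 CPM in mock leaves (log2 fold change -3.17 ± 0.35, SE; adjusted p = 1.5e-06). Niben101Scf09665g01003.1, with the text of pectinesterase/pectinesterase inhibitor 3, rose as well, with log2 fold changes of 4.07 ± 0.57 in total RNA and 3.09 ± 0.52 in polysome RNA (SE; adjusted p = 1.9e-05 and 0.00011). These became 5.39 without mock total library 7 and 3.85 without mock polysome library 4.

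Many plant pectinesterases are made with an inhibitor-like domain in front of the enzyme, and the members were therefore split by their annotated domains after the values were seen. Of 25 tested genes with the inhibitor domain and the enzyme fold, 3 rose and 12 fell in total RNA and 1 rose and 11 fell in polysome RNA. Of 9 tested with the fold alone, 2 rose and 3 fell in total RNA and 2 rose and 4 fell in polysome RNA. The 2 tested with the inhibitor domain alone rose in both fractions. Subtilisin-like proteases, a large family of which some members cut that domain off in Arabidopsis, fell more often than they rose: of 54 tested, 10 rose and 27 fell in total RNA and 10 rose and 26 fell in polysome RNA. Among all genes 25.7% rose and 28.3% fell in total RNA, and 28.1% and 28.0% in polysome RNA.

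**Figure D3:**
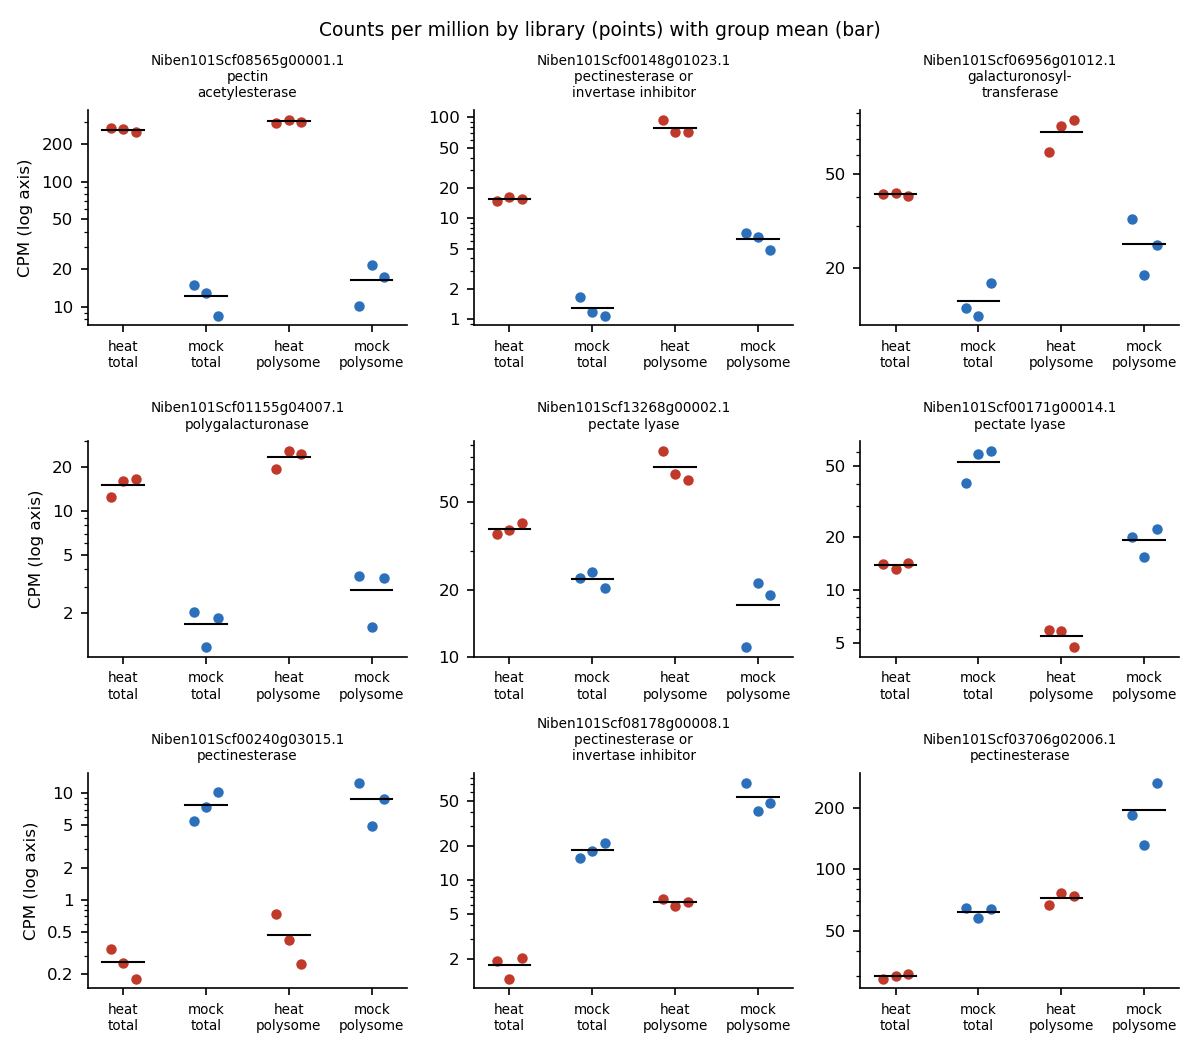
CPM (log axes) of 9 pectin genes in each library, with heat libraries in red, mock libraries in blue and a black bar at each group mean. The acetylesterase in the first panel lies at 249 to 312.5 CPM after heat and at 8.58 to 21.8 CPM in mock, while the pectate lyase Niben101Scf00171g00014.1, both pectinesterases and the inhibitor that fell show heat below mock in both fractions.

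Genes for small inhibitors of the pectinesterase or invertase type moved both ways, some by more than 10-fold. Of 19 tested, 4 rose and 10 fell in total RNA (median log2 -0.84), and 6 rose and 5 fell in polysome RNA (median -0.03). Without the pair of mock libraries, 5 rose and 9 fell in total RNA and 7 rose and 5 fell in polysome RNA, of 18 tested. The annotation gives all 26 genes of the class the inhibitor domain alone and does not say whether pectinesterases or invertases are the target.

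Among those that rose, Niben101Scf00148g01023.1 had 15, 16.2 and 15.5 CPM in heat total RNA, against 1.65, 1.17 and 1.09 CPM in mock total RNA (log2 fold change 3.57 ± 0.21, SE; adjusted p = 1.2e-09). It reached 95.3, 70.9 and 71.7 CPM in heat polysome RNA, against 7.14, 6.57 and 4.81 CPM in mock polysome RNA (log2 fold change 3.67 ± 0.19, SE; adjusted p = 2e-10). The ranges of heat and mock were far apart in both fractions, and this was the class member with the highest mean CPM. Niben101Scf00148g00004.1, which has the same Arabidopsis homolog in the annotation (AT5G62360.1), rose by 3.88 and 4.66 on the log2 scale in total and polysome RNA (SE 0.27 and 0.27; adjusted p = 7.3e-09 and 8.8e-10). Niben101Scf04217g04003.1 rose by 3.02 and 3.77 in the same fractions (SE 0.28 and 0.28; adjusted p = 2.4e-07 and 1.7e-08).

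Of those that fell, Niben101Scf08178g00008.1 had 1.89, 1.33 and 2.01 CPM in heat total RNA, against 15.7, 18.1 and 21.1 CPM in mock total RNA (log2 fold change -3.38 ± 0.24, SE; adjusted p = 1.1e-08). Its polysome levels were 6.76, 5.81 and 6.35 CPM after heat, against 72.9, 40.55 and 47.7 CPM in mock leaves (log2 fold change -3.09 ± 0.23, SE; adjusted p = 1.3e-08). Thus every heat library was below every mock library. All 3 tested genes that share its Arabidopsis homolog in the annotation (AT1G62770.1) fell in total RNA, and 2 of them in polysome RNA, again tallied after the values were seen. Niben101Scf05030g02010.1 has the homolog of the rising Niben101Scf00148g01023.1 yet fell, with 0.458, 0.380 and 0.8525 CPM in heat total RNA, against 3.55, 5.05 and 10.8 CPM in mock total RNA (log2 fold change -3.50 ± 0.63, SE; adjusted p = 0.00023). The polysome fraction held 2.09, 2.43 and 2.86 CPM after heat, against 37.9, 6.80 and 16.9 CPM in mock leaves (log2 fold change -3.05 ± 0.55, SE; adjusted p = 0.00021). Mock total library 7 and mock polysome library 2 were its highest, and the log2 fold changes were -2.90 and -2.23 without each of them, still past the threshold.

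Pectate lyases cut demethylated chains by elimination, and most of their genes fell. Of 22 tested, 1 rose and 16 fell in total RNA (median log2 -1.81), and 2 rose and 15 fell in polysome RNA (median -1.38). Without the pair of mock libraries 1 rose and 14 fell in total RNA, and 2 rose and 13 fell in polysome RNA. The class sum was 114, 121 and 119.7 CPM in heat total RNA, against 244, 286 and 318 CPM in mock total RNA. In polysome RNA it was 184, 158 and 163 CPM after heat, against 323, 189 and 284 CPM in mock. The sums of heat and mock did not overlap in either fraction, although 1 mock polysome library came close.

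The calls fell apart by the homolog that the annotation names, a grouping made after the values were seen. Of 19 tested genes whose homolog is a Zinnia pectate lyase (PLY_ZINVI), 16 fell in total RNA and 15 in polysome RNA, and the other 3 and 4 did not pass the test. Of 3 tested genes whose homolog is a tobacco pectate lyase (PLY_TOBAC), 1 rose in total RNA and 2 in polysome RNA. In the Zinnia-type group, Niben101Scf00171g00014.1 had 14, 13.05 and 14.2 CPM in heat total RNA, against 40.0, 58.5 and 61.2 CPM in mock total RNA (log2 fold change -1.95 ± 0.18, SE; adjusted p = 1.9e-07). Its polysome levels were 5.90, 5.81 and 4.73 CPM after heat, against 19.8, 15.35 and 22.05 CPM in mock leaves (log2 fold change -1.79 ± 0.20, SE; adjusted p = 1.9e-06). Heat and mock libraries were apart by a wide margin in both fractions. Niben101Scf04362g00010.1 had the smallest adjusted p of the class in total RNA, at 1.72, 1.77 and 1.89 CPM after heat, against 13.6, 11.9 and 10.6 CPM in mock leaves (log2 fold change -2.74 ± 0.22, SE; adjusted p = 3.8e-08). The largest falls were those of Niben101Scf02853g06014.1, with log2 fold changes of -3.92 ± 0.44 and -3.62 ± 0.47 in total and polysome RNA (SE; adjusted p = 1.9e-06 and 8.2e-06), and of Niben101Scf14768g00003.1, with -3.55 ± 0.39 and -2.79 ± 0.41 (SE; adjusted p = 1.4e-06 and 3.1e-05). The first was -4.89 in total RNA without heat total library 4, and the second -3.65 in polysome RNA without heat polysome library 7.

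Against this trend stood the pectate lyase with the most counts, the tobacco-type Niben101Scf13268g00002.1. It had 35.6, 37.4 and 40.25 CPM in heat total RNA, against 22.6, 24.1 and 20.5 CPM in mock total RNA (log2 fold change 0.75 ± 0.20, SE; adjusted p = 0.0041). In the polysome fraction it had 84.8, 67 and 62.5 CPM after heat, against 11, 21.5 and 18.9 CPM in mock leaves (log2 fold change 2.06 ± 0.20, SE; adjusted p = 4.6e-07). Heat libraries were above mock libraries in both fractions, by 1.685-fold in total RNA and 4.16-fold in polysome RNA. The other tobacco-type gene that rose in polysome RNA was Niben101Scf10747g00017.1, with 7.255, 7.18 and 6.10 CPM after heat, against 4.09, 3.67 and 3.13 CPM in mock leaves (log2 fold change 0.91 ± 0.20, SE; adjusted p = 0.001). Its total RNA held 8.64, 8.24 and 9.13 CPM after heat, against 7.55, 8.98 and 10.4 CPM in mock leaves, which overlapped (adjusted p = 0.83).

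**Figure D4:**
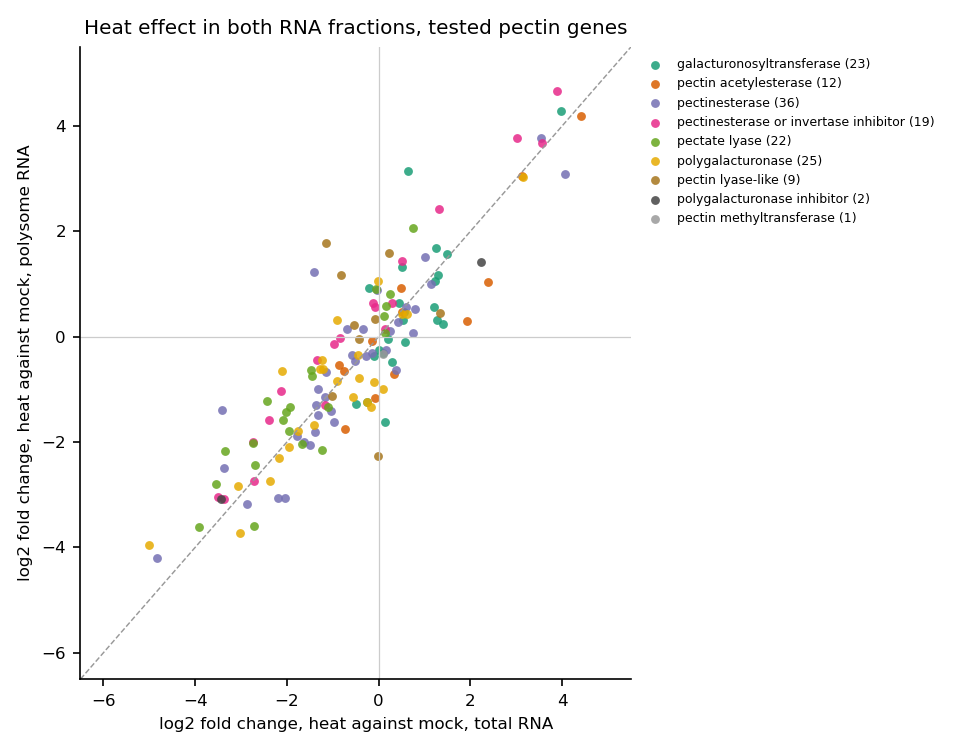
Log2 fold change of each tested pectin gene, heat against mock, in total RNA (x axis) and polysome RNA (y axis), coloured by class, with the number tested in the legend and a dashed line where both changes are equal. Points run along that line, for example the pectate lyase Niben101Scf14768g00003.1 at -3.55 and -2.79 and the acetylesterase Niben101Scf08565g00001.1 at 4.40 and 4.19.

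Polygalacturonases, which cut the chain by hydrolysis, also fell more often than they rose. Of 25 tested, 2 rose and 12 fell in total RNA (median log2 -0.91), and 1 rose and 12 fell in polysome RNA (median -0.86). These 25 include 4 with the text of a non-catalytic subunit, which gave 1 rise and 2 falls in each fraction. Without the pair of mock libraries, 3 rose and 10 fell in total RNA and 2 rose and 11 fell in polysome RNA. The 2 rises in total RNA ranged from 1 to 3 as each library was left out. They were 1 without any single heat total library and without mock total library 6 or 7. Mock total library 7 was the highest of its group in 20 of the 25 genes and mock polysome library 2 in 16, and the class sums were 98.0, 108 and 108 CPM in heat total RNA, against 137, 138 and 223 CPM in mock total RNA. In polysome RNA the sum was 115, 120 and 113 CPM after heat, against 302, 127 and 222 CPM in mock. The pollen and anther list was also highest in those libraries, and its part in the result was not tested.

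The member with the highest mean CPM, Niben101Scf00421g01025.1, had 6.46, 6.15 and 5.85 CPM in heat total RNA, against 12.6, 9.16 and 27 CPM in mock total RNA (log2 fold change -1.40 ± 0.44, SE; adjusted p = 0.014). In polysome RNA its levels were 20.8, 15.6 and 14.9 CPM after heat, against 84.5, 18.9 and 60.6 CPM in mock leaves (log2 fold change -1.67 ± 0.43, SE; adjusted p = 0.0035). Library 7 set much of the mock total mean: without it the log2 fold change was -0.81 and the call was lost (adjusted p = 0.12). Niben101Scf04287g08001.1 had the steepest fitted fall of the class, on very few reads. Over the 3 libraries it had 2 reads above the lowest count in heat total RNA, against 166 in mock total RNA, a ratio of 0.0117 (95% counting interval 0.00141 to 0.0431), and most of the mock reads came from library 7 (0.761, 1.23 and 8.71 CPM in mock leaves). Its polysome levels were 0.984, 0.633 and 0.249 CPM after heat, against 24.3, 2.29 and 2.80 CPM in mock leaves (log2 fold change -3.95 ± 1.08, SE; adjusted p = 0.0055). Without mock total library 7 the fitted log2 fold change in total RNA, which rests on those few reads, was -3.19 and the call was lost (adjusted p = 0.054). Without mock polysome library 2 that in polysome RNA was -1.996, and the call was lost as well (adjusted p = 0.07). With both libraries left out together both calls were made, at -3.18 in total RNA (adjusted p = 0.00019) and -1.9985 in polysome RNA (adjusted p = 0.0013). Both libraries held the highest mock levels of this gene and were chosen after the values were seen, so these calls are no check of the fall.

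Another part of the class is the non-catalytic beta subunit, a wall protein that in tomato fruit binds a polygalacturonase. The 4 tested genes with this text split, with 1 rise and 2 falls in each fraction, while of the 21 other tested genes 1 rose and 10 fell in total RNA and 10 fell in polysome RNA (counted by text after the values were seen). The rise was that of Niben101Scf01155g04007.1, with 12.4, 16 and 16.7 CPM in heat total RNA, against 2.03, 1.17 and 1.86 CPM in mock total RNA (log2 fold change 3.15 ± 0.27, SE; adjusted p = 7.9e-08). It held 19.55, 25.8 and 24.5 CPM in heat polysome RNA, against 3.62, 1.60 and 3.47 CPM in mock polysome RNA (log2 fold change 3.04 ± 0.27, SE; adjusted p = 1.1e-07). Its counterpart Niben101Scf08637g00009.1 was lower in every heat library, at 4.29, 4.245 and 5.66 CPM in heat total RNA, against 15.2, 18.2 and 21.4 CPM in mock total RNA (log2 fold change -1.95 ± 0.22, SE; adjusted p = 1.7e-06). Polysome RNA gave 7.87, 8.235 and 6.85 CPM after heat for it, against 31.7, 24.1 and 43.3 CPM in mock leaves (log2 fold change -2.10 ± 0.22, SE; adjusted p = 8e-07).

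Pectin lyase-like genes gave different calls in the 2 fractions. Of the 11 genes, 9 carry the glycoside hydrolase family 28 domain of polygalacturonases, as do 32 of the 40 polygalacturonases. Among 9 tested, 1 rose and 3 fell in total RNA (median log2 -0.42), and 3 rose and 1 fell in polysome RNA (median 0.33). These small counts were unsteady, with 2 to 6 falls in total RNA and 1 to 4 rises in polysome RNA as each library was left out (6 falls without heat polysome library 5, 1 rise without mock polysome library 3). Without the pair of mock libraries, 1 rose and 2 fell in total RNA and 3 rose and 1 fell in polysome RNA. The member with the highest mean CPM, Niben101Scf18347g00004.1, passed the test in neither fraction, with log2 fold changes of -0.42 ± 0.19 in total RNA and -0.04 ± 0.19 in polysome RNA (SE; adjusted p = 0.071 and 0.86). Niben101Scf02724g00002.1 rose in total RNA, at 10.7, 10.8 and 11.8 CPM after heat, against 4.38, 4.29 and 4.48 CPM in mock leaves (log2 fold change 1.34 ± 0.18, SE; adjusted p = 1.6e-05). Niben101Scf03709g03009.1, which shares its Arabidopsis homolog (AT4G33440.1), fell in polysome RNA, at 1.48, 2.43 and 2.86 CPM after heat, against 8.09, 12.8 and 11.5 CPM in mock leaves (log2 fold change -2.26 ± 0.27, SE; adjusted p = 3.3e-06). In total RNA the second gene did not pass the test, at 10.5, 8.74 and 9.62 CPM after heat, against 12.05, 9.51 and 7.69 CPM in mock leaves (log2 -0.02 ± 0.22, SE; adjusted p = 0.94).

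Polygalacturonase-inhibiting proteins are leucine-rich repeat proteins of the wall that block fungal polygalacturonases. The 2 genes with this text moved in opposite directions. Niben101Scf00637g04001.1 had 15.1, 15.65 and 14.13 CPM in heat total RNA, against 2.22, 3.29 and 3.97 CPM in mock total RNA (log2 fold change 2.24 ± 0.29, SE; adjusted p = 8e-06). Polysome RNA held 18.3, 21.75 and 23.5 CPM after heat, against 6.375, 4.89 and 12.9 CPM in mock leaves (log2 fold change 1.42 ± 0.28, SE; adjusted p = 0.00042). Niben101Scf28780g01002.1 had 0.114, 0.127 and 0.244 CPM in heat total RNA, against 1.84, 1.41 and 2.24 CPM in mock total RNA (log2 fold change -3.43 ± 0.41, SE; adjusted p = 4.2e-06). In polysome RNA the second gene had 3 reads above the lowest count after heat, against 63 in mock, a ratio of 0.0604 (95% counting interval 0.0121 to 0.185). So heat and mock libraries did not overlap for either gene in either fraction.

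The difference between both heat effects was then tested as an interaction, which asks whether heat moved a transcript more in polysome RNA than in total RNA and is read here as translation efficiency. Of the 149 genes, 9 were higher (6.04%) and 12 lower (8.05%), against 10.2% and 8.42% of all genes tested, and the median was 0.06 against 0.07 for all genes. Leaving out each library in turn gave 5 to 12 higher and 4 to 12 lower. The 9 higher were 3 inhibitors, 2 pectate lyases, 2 pectin lyase-like genes, 1 galacturonosyltransferase and 1 pectinesterase. The 12 lower were 5 galacturonosyltransferases, 4 pectin acetylesterases, 2 pectin lyase-like genes and 1 polygalacturonase. As each library was left out, 1 to 3 galacturonosyltransferases and 1 to 4 acetylesterases were lower, and 0 to 3 inhibitors and 1 to 3 pectate lyases were higher, so the 5 galacturonosyltransferases were reached in none of those 12 fits. For comparison, 43 of the 85 tested mesophyll genes were higher in the interaction, and their part in these counts was not tested.

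The largest efficiency change of a named gene was in Niben101Scf02290g09003.1, with the text of pectinesterase/pectinesterase inhibitor U1. It had 2.57, 2.34 and 2.31 CPM in heat total RNA, against 5.01, 8.75 and 5.38 CPM in mock total RNA (log2 fold change -1.40 ± 0.25, SE; adjusted p = 0.00022). On polysomes it stood at 0.738, 0.528 and 0.498 CPM after heat, against 0.285, 0.229 and 0.224 CPM in mock leaves, all low levels. Its fall in total RNA was thus not matched in polysome RNA, where all heat libraries were above all mock libraries but the test was not passed (log2 1.22 ± 0.52, SE; adjusted p = 0.07), and the interaction was 2.62 ± 0.58 (SE; adjusted p = 0.0064). Niben101Scf00959g00020.1, with the text of polygalacturonate 4-alpha-galacturonosyltransferase, had 3.20, 2.85 and 1.62 CPM in heat polysome RNA, against 0.285, 0.153 and 0.448 CPM in mock polysome RNA. Its total RNA held 3.60, 2.725 and 4.26 CPM after heat, against 2.22, 1.88 and 2.69 CPM in mock leaves, and the interaction was 2.51 ± 0.55 (SE; adjusted p = 0.0063). The pectin lyase-like gene Niben101Scf03706g02015.1 fell in total RNA (log2 -0.83 ± 0.23, SE; adjusted p = 0.0064) and rose in polysome RNA (log2 1.16 ± 0.31, SE; adjusted p = 0.0042). The inhibitor Niben101Scf05203g05022.1 rose in both fractions and more in polysome RNA, by 2.43 there and by 1.31 in total RNA on the log2 scale, an interaction of 1.12 ± 0.35 (SE; adjusted p = 0.038). Niben101Scf03706g02015.1 and the other tested gene with the homolog AT3G16850.1 were the 2 genes that fell in one fraction and rose in the other.

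On the lower side, Niben101Scf03709g03009.1, whose levels are given above, had the largest change of the named genes, -2.24 ± 0.35 (SE; adjusted p = 0.00084). The acetylesterase Niben101Scf12852g00002.1 rose in total RNA, at 32.55, 30.2 and 34.2 CPM after heat, against 6.34, 7.69 and 11.5 CPM in mock leaves (log2 fold change 1.92 ± 0.27, SE; adjusted p = 2.1e-05). In polysome RNA heat and mock libraries overlapped, at 15.7, 15.8 and 20.2 CPM after heat, against 20.5, 7.94 and 14 CPM in mock leaves, and the interaction was -1.63 ± 0.38 (SE; adjusted p = 0.009). Niben101Scf04270g00001.1, another acetylesterase, rose in both fractions but less in polysome RNA, by 1.04 there and by 2.38 in total RNA on the log2 scale, an interaction of -1.34 ± 0.40 (SE; adjusted p = 0.03). Niben101Scf07405g05002.1, the third named acetylesterase, fell in polysome RNA only by the test (log2 -1.16 ± 0.26, against -0.07 ± 0.24 in total RNA, SE; adjusted p = 0.0013 and 0.81), and its interaction was -1.09 ± 0.35 (SE; adjusted p = 0.042). The acetylesterase with the highest mean CPM, Niben101Scf08565g00001.1, did not pass, with an interaction of -0.22 ± 0.32 (SE; adjusted p = 0.69). Of the 14 named genes past the threshold, 7 kept the call in every alternative in which they were tested. The other 7 lost it in at least 1: Niben101Scf02000g00001.1, Niben101Scf02724g00002.1, Niben101Scf04270g00001.1, Niben101Scf05203g05022.1, Niben101Scf07405g05002.1 and Niben101Scf07678g02003.1 when any of several single libraries was left out (adjusted p of 0.05 to 0.099), and Niben101Scf10747g00017.1 without heat total library 3 (adjusted p = 0.055).

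Polysome RNA was last set against total RNA within each treatment, which describes how strongly a transcript was represented on ribosomes relative to its abundance. These comparisons share their libraries with those of heat and mock. After heat, 44 of 149 genes were higher in polysome RNA (29.5%) and 30 lower (20.1%), where 30.8% and 28.4% of all genes were. In mock leaves 40 were higher (26.8%) and 29 lower (19.5%), against 27.0% and 27.2% of all genes. Without mock total library 7 and mock polysome library 2, the counts were 48 and 31 after heat and 36 and 29 in mock, of 143.

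**Figure D5:**
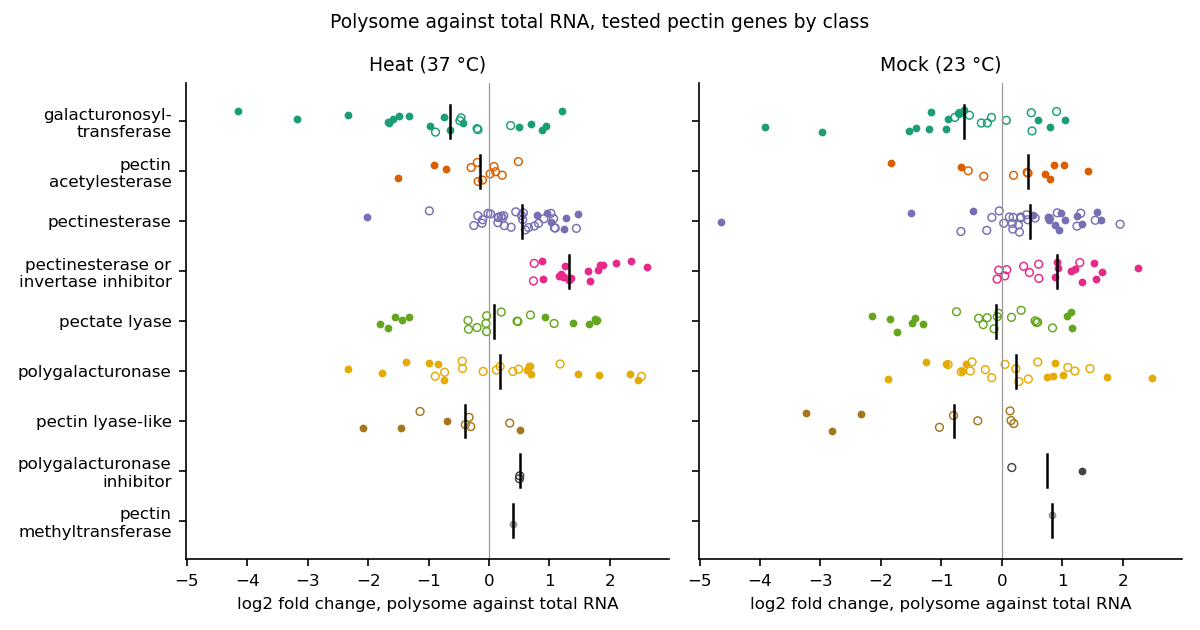
Log2 fold change of polysome against total RNA for each tested pectin gene by class, after heat (left) and in mock (right), with filled points for an adjusted p under 0.05, open points for genes that did not pass, and a black bar at the class median. The medians of the inhibitors lie at 1.32 after heat and 0.91 in mock, and those of the galacturonosyltransferases at -0.65 and -0.63.

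Inhibitor genes lay on the polysome side. Of 19 tested, 17 were higher in polysome RNA after heat and 10 in mock, and 0 were lower in either by edgeR (0 at an unadjusted p under 0.05, 0 by DESeq2 and 0 by limma-voom). The mock count ranged from 5 to 12 as each library was left out. It was 5 without mock polysome library 2, which was the highest of its group in 15 of the 19. In Niben101Scf00148g01023.1 the log2 fold change of polysome against total RNA was 2.35 ± 0.17 after heat and 2.24 ± 0.23 in mock (SE; adjusted p = 3.6e-08 and 1e-06). Niben101Scf08178g00008.1, which fell under heat, was also higher in polysome RNA, by 1.84 ± 0.26 after heat and 1.55 ± 0.20 in mock (SE; adjusted p = 2e-05 and 1.2e-05). Inhibitors are the shortest proteins of the set as far as the annotation states it: their homologs have 176 to 276 residues (21 genes), against 391 to 451 for acetylesterases (16 genes), 444 to 506 for pectin lyase-like proteins (11 genes) and 346 to 540 for 5 galacturonosyltransferases. The part of length in these values was not tested.

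Galacturonosyltransferases lay mostly on the total RNA side, with 5 higher and 12 lower in polysome RNA after heat and 3 higher and 10 lower in mock, of 23 (5 higher in mock without heat polysome library 5). After heat, Niben101Scf02000g00001.1 and Niben101Scf02358g00003.1, both with the homogalacturonan text, were lower in polysome RNA, with log2 fold changes of -3.18 ± 0.39 and -2.33 ± 0.17 (SE; adjusted p = 4.8e-06 and 3.7e-08). Galacturonosyltransferase 8 (Niben101Scf06956g01012.1) went the other way, at 0.88 ± 0.19 after heat and 0.79 ± 0.19 in mock (SE; adjusted p = 0.00075 and 0.0026). Pectin acetylesterases had 5 genes higher in polysome RNA in mock and 2 lower, and 3 lower after heat, with the other 9 not past the threshold there.

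Pectinesterases were higher in polysome RNA in 6 genes and lower in 1 after heat, and higher in 11 and lower in 3 in mock. The 11 ranged from 4 to 15 as each library was left out. They dropped to between 4 and 7 when mock total library 5 or 6, mock polysome library 2 or 4, or heat total library 2 or 4 was left out. Among them Niben101Scf03706g02006.1 was higher by log2 1.27 ± 0.20 after heat and 1.64 ± 0.20 in mock (SE; adjusted p = 4.6e-05 and 5.2e-06). At the other end, Niben101Scf02290g09003.1 was lower, with log2 fold changes of -2.02 ± 0.35 after heat and -4.65 ± 0.37 in mock (SE; adjusted p = 0.00014 and 1.2e-07). Pectate lyases gave 6 higher and 5 lower after heat and 3 higher and 6 lower in mock, where 5 were higher without mock polysome library 3. Polygalacturonases gave 8 higher and 6 lower after heat and 6 higher and 5 lower in mock. As each library was left out, the 8 ranged from 3 to 9, and in mock the 6 from 3 to 9 and the 5 from 3 to 7. The 8 were 3 without heat total library 2 or 3 and 5 without heat polysome library 6. In mock the 6 were 3 without mock polysome library 2 or 4, and the 5 were 3 without mock polysome library 3. Among them Niben101Scf01209g05009.1 was higher in polysome RNA after heat by log2 2.33 ± 0.91 (SE; adjusted p = 0.038), a call lost without any 1 of the 6 heat libraries (adjusted p of 0.053 to 0.17). Niben101Scf00231g07027.1 was lower, with log2 fold changes of -2.33 ± 0.51 after heat and -1.25 ± 0.43 in mock (SE; adjusted p = 0.00091 and 0.023), with the mock call lost without mock total library 5 (log2 -0.90, adjusted p = 0.11) and without mock polysome library 3 or 4. The pectin lyase-like gene Niben101Ctg15966g00001.1 was lower too, with log2 fold changes of -1.45 ± 0.39 after heat and -2.82 ± 0.45 in mock (SE; adjusted p = 0.0042 and 8.2e-05).

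Other genes of pectin and the wall, matched by text and outside the set, give the setting. Their counts stand beside those of all genes tested, of which 25.7% rose and 28.3% fell in total RNA. In polysome RNA 28.1% of all genes rose and 28.0% fell. Enzymes that supply the sugar nucleotides of pectin gave 4 rises and 4 falls of 18 tested in total RNA and 5 rises and 2 falls in polysome RNA. Of 7 tested genes for breakdown of rhamnogalacturonan, the branched pectin domain, 1 rose and 3 fell in total RNA and 4 fell in polysome RNA. Beta-galactosidases and arabinosidases, which trim pectin side chains, gave 11 rises and 7 falls of 35 in total RNA but 3 rises and 15 falls in polysome RNA. Wall-associated kinases, receptors that bind pectin, gave 2 rises and 6 falls of 14 in total RNA and 3 rises and 5 falls in polysome RNA. For comparison, expansins and xyloglucan enzymes gave 30 rises and 31 falls of 82 in total RNA and 32 rises and 25 falls in polysome RNA, and cellulose synthases gave 16 rises and 8 falls of 33 in total RNA and 8 rises and 10 falls in polysome RNA. Vascular genes (9) summed to 142 to 147.6 CPM in heat total RNA, against 81.7 to 93.8 CPM in mock total RNA, and to 218 to 249.9 CPM in heat polysome RNA, against 121 to 143 CPM in mock polysome RNA. Root genes (13) summed to 145 to 149 CPM in heat total RNA, against 80.5 to 92.05 CPM in mock total RNA, and to 372 to 489.6 CPM in heat polysome RNA, against 180.3 to 279 CPM in mock polysome RNA. For both lists heat sums lay above mock sums in both fractions, but most root genes did not follow the sum in total RNA. Of 9 tested root genes, 2 rose and 5 fell in total RNA (median log2 -0.51), and 5 rose and 3 fell in polysome RNA. Of 9 tested vascular genes, 6 rose in each fraction. Epidermis and cuticle genes (20) summed to 248.5 to 263 CPM in heat total RNA, against 169 to 203 CPM in mock total RNA, but overlapped in polysome RNA, at 346 to 389 CPM after heat, against 266 to 373 CPM in mock. Of 17 tested, 7 rose and 7 fell in total RNA, and 7 rose and 5 fell in polysome RNA. The part of these lists in the pectin results was not tested.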

How the data were processed

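Total RNA and polysome RNA of N. benthamiana leaves were measured by RNA sequencing in 12 libraries, 3 for each treatment and fraction. The authors deposited 1 table of whole-number counts per gene beside their own normalised columns, and only the counts were used here. Per the submitters' processing notes, cutadapt, HISAT2, HTSeq 0.11.0 and DESeq were used, while no source used here names the genome build. The lowest count is 1 in every library of the deposited table, and reads above that are given where counts are low. Totals of 10724854 to 14485118 counts per library set the precision of low genes, and counting intervals cover counting error only.

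Counts were tested with edgeR 4.0.16 (R 4.3.3): genes were filtered by filterByExpr (minimum count 10), libraries scaled by TMM, and 1 mean per group fitted over all 12 libraries. The quasi-likelihood F test was adjusted by Benjamini-Hochberg over the 34325 genes that passed, with a threshold of 0.05. An SE is the absolute log2 change over the root of the F statistic. The procedure was tested on simulated data, for heat against mock in total RNA only. The simulation gave each gene the same spread in all groups. It cannot show how the test does where groups differ in spread, as they did here. The members, gene lists and related lists were chosen with earlier results of these data known. Splits by domain, homolog, description text and highest library, the homolog lengths and the fit without mock total library 7 and mock polysome library 2 were chosen after the values were seen.

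Genes were named by rule. In each heat comparison these were the 6 largest rises and falls among called members with a mean of at least 1 CPM, with heat and mock libraries apart or, for the interaction, the same direction whichever library was left out. In each class they were the smallest adjusted p in each direction and the highest mean CPM, and for polysome against total RNA the 3 largest differences each way. Title numbers are shared only across unlike groups, and the deviations of same-numbered libraries correlated at -0.058 to 0.007, so they were not taken as pairs. Alternatives were DESeq2 1.42.0, limma-voom (limma 3.58.1), other scaling, filters and thresholds, the counts less 1, fits of only the groups compared, and fits without libraries. No sequences were analysed here.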

Additional observations from a re-analysis of the deposited data

Results flagged for a closer look

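The difference between the polysome and the total RNA heat effect was itself tested by the interaction term of edgeR's fit, and 14 named genes passed an adjusted p of 0.05. Passing this test was 1 of the grounds for naming, so that number is partly set by the rule. Of all 149 tested members, 9 were higher (6.04%) and 12 lower (8.05%), against 10.2% and 8.42% of all genes tested. Values are log2, the heat effect in polysome RNA minus that in total RNA. Heat moved polysome RNA upward relative to total RNA in 6 of them. The pectinesterase Niben101Scf02290g09003.1 differed by 2.62, the galacturonosyltransferase Niben101Scf00959g00020.1 by 2.51 and the pectin lyase-like gene Niben101Scf03706g02015.1 by 1.99. The pectate lyases Niben101Scf13268g00002.1 and Niben101Scf10747g00017.1 differed by 1.30 and 0.96, and the inhibitor Niben101Scf05203g05022.1 by 1.12.

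In the other 8 the polysome effect was the lower one. Among galacturonosyltransferases, Niben101Scf02000g00001.1 differed by -1.75, Niben101Scf02358g00003.1 by -1.16 and Niben101Scf07678g02003.1 by -0.98. Among pectin acetylesterases, Niben101Scf12852g00002.1 differed by -1.63, Niben101Scf04270g00001.1 by -1.34 and Niben101Scf07405g05002.1 by -1.09. The pectin lyase-like genes Niben101Scf03709g03009.1 and Niben101Scf02724g00002.1 differed by -2.24 and -0.89. The report gives the levels behind most of these values, and which calls depend on single libraries.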

How the results depend on the processing

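The 10 counts of called genes stayed within 1.5 times the reported count under other scaling, no filter, DESeq2, limma-voom and counts less 1. So did the counts from fits of only the groups compared, which cannot give the interaction. The counts without mock total library 7 and mock polysome library 2 also stayed within that margin. That pair was chosen after the values were seen, so its fit is no independent check. With only genes of at least 5 CPM on average, 32 fell in total RNA, 17 rose and 35 fell in polysome RNA, 5 had a higher interaction, 25 were higher and 17 lower in polysome than total RNA in mock, and 28 were higher after heat; fewer genes are tested there. Without mock total libraries 6 and 7, the interaction gave 5 higher and 3 lower, and the lone mock total library was taken to vary as other groups do. Requiring a change of more than 1 log2 unit left 7 lower in the interaction, and 22 higher in mock and 29 higher after heat in polysome against total RNA. The cause was not tested otherwise. Leaving out each library in turn gave 28 to 32 rises and 50 to 70 falls in total RNA, 28 to 34 and 49 to 62 in polysome RNA, 5 to 12 higher and 4 to 12 lower in the interaction, 27 to 51 and 25 to 34 in mock and 34 to 47 and 26 to 31 after heat for polysome against total RNA.

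With the replicate block of title numbers, whose libraries did not pair, 29 rose and 60 fell in total RNA, 30 and 53 in polysome RNA, and the interaction gave 6 higher and 6 lower; polysome against total RNA gave 43 higher and 29 lower after heat and 37 and 27 in mock. Among the 44 named genes no called value changed sign. Calls were lost at least once for 7 genes in total RNA, 4 in polysome RNA, 7 in the interaction, 10 in polysome against total RNA after heat and 9 in mock. Depth limits the 48 untested genes and members near 1 CPM, where a few reads set the value.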
